A study of Mus musculus with 8 samples.

Results

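The enzymes described here are the cytochrome P450s (Cyp), the sulfotransferases (Sult) and the UDP-glucuronosyltransferases (Ugt) of the mouse oviduct. They were chosen by gene name: all noncontrol probes of the array whose name starts with Cyp and a number, with Sult, or with Ugt and a number, except Cyp11a1, Cyp17a1, Cyp19a1, Cyp26a1 and Cyp26b1. The choice gave 133 probes of 91 gene names (66 Cyp, 11 Sult and 14 Ugt) among 41174 probes of 27962 names. Oviduct RNA of adult female CD-1 mice (an outbred stock) was measured on 8 arrays, each an independent biological replicate, and how many mice each array holds is not given in the sources used here. The mice of the 4 control arrays received corn oil subcutaneously on PND1–PND5, and those of the 4 Gen arrays received genistein (Gen), a soy isoflavone with estrogenic activity, in corn oil at 50 mg/kg/day on the same days. Superovulation and mating followed at 6–8 weeks of age in both groups, whose oviducts were taken on GD2, 48 hr after hCG, without the embryos. The comparison therefore asks which of these enzymes differed in the adult oviduct weeks after the last injection. Each group had its own slide, and in every value below the slide and the treatment cannot be told apart.

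P450s are heme enzymes that insert oxygen into lipophilic compounds. Most of the members sit in the endoplasmic reticulum and take electrons from P450 oxidoreductase, and the mitochondrial ones take them from ferredoxin. Families 1 to 3 act mainly on foreign compounds, and also on steroids and fatty acids, family 4 on fatty acids and eicosanoids, and the higher families on sterols, bile acids, steroids and vitamin D. Sulfotransferases move a sulfate group from the donor PAPS onto hydroxyl and amino groups, and UDP-glucuronosyltransferases add glucuronic acid, which makes their substrates more soluble. Estrogens and isoflavones such as Gen are substrates of all 3 groups of enzymes.

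Signals below are background-adjusted intensities scaled to the same 75th percentile on each array, with no unit, and they are compared only between arrays for 1 probe. A probe counted as measured on an array where the scanner software called it well above background. There were more such probes on the Gen arrays (29537–31488) than on the control arrays (25366–28943), and the same was seen for the members (76–86 against 64–73 of 133 probes). The oviduct was checked by its markers: all 13 listed genes of secretory and ciliated epithelium, among them Ovgp1, Foxj1 and Pax8, were measured on all 8 arrays. The members include many enzymes known from liver. Of the 8 hepatocyte markers listed, Alb, Ttr and Fga were measured on no array, Hpx and Tat on all 8, and Fgb, Apoa1 and Apoc3 on 4, 3 and 2 Gen arrays and no control array; Fgb had a log2 difference of 2.80 (adjusted p = 0.201). The summed signal of 12 ovarian steroidogenic markers was 20160–51666 in controls and 51606–184189 in Gen-treated mice, highest on Gen arrays 1 and 2. Markers of other cells also differed between the groups. Of 8 B cell and plasma cell markers all were higher in Gen and 2 passed the test, with sums of 8830–25232 on control and 38340–55190 on Gen arrays, and 10 of 11 cumulus cell and oocyte markers were higher (966–5847 and 5786–31542), none past the test. In that list Has2, Ptx3 and Tnfaip6 had log2 differences of only 0.02, 0.15 and -0.09. The other genes lay between 1.88 (Amh) and 3.34 (Oosp1), so the rise was not shared by the whole list. Of 10 macrophage markers 9 were higher and 1 passed, and all 9 smooth muscle markers were lower, none past the test. Mast cell sums were lower without overlap (196774–281178 and 127125–156574), but Hdc made up most of each sum (means 236317 in controls and 143289 in Gen). Of the 7 mast cell markers tested 5 were lower and 2 higher, none passed, and the groups were apart for Hdc only. The part of these cells in the values below was not tested. In whole oviducts, fewer cells of a type and less RNA per cell cannot be told apart.

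Each gene is given by its brightest probe, that is the highest mean of log2 signals over the 8 arrays. Of the 91 genes 47 were measured on all 8 arrays, 13 on 4–7 arrays, 11 on 1–3 arrays and 20 on none. Detection differed by family. All 4 Cyp2b genes, 7 of the 11 Cyp4 genes and 8 of the 11 Sult genes were measured on all 8 arrays, but only 2 of the 11 Cyp2c genes, 1 of the 6 Cyp3 genes and 1 of the 8 Ugt2 genes. The 20 genes measured on no array include Cyp1a2, Cyp2a12, Cyp2j5, Cyp8b1, Cyp11b2, Sult2a2, Ugt1a9, Ugt2b1 and Ugt2b35.

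**Figure D1:**
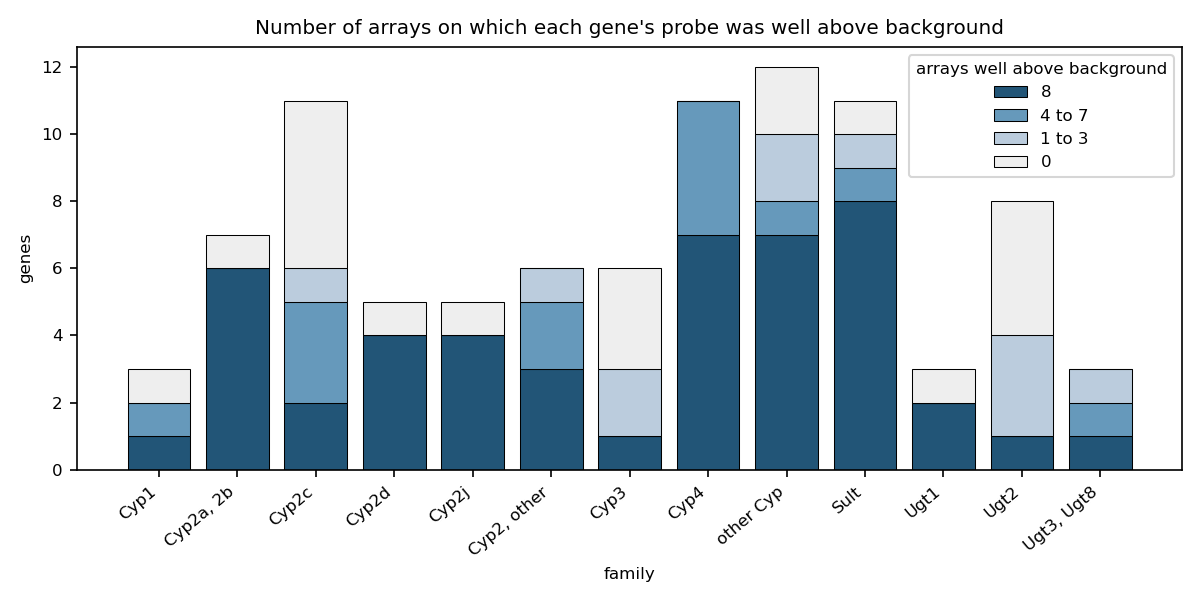
Number of genes (vertical axis) in each family (horizontal axis) by the number of arrays, of 8, on which the gene's brightest probe was well above background. Cyp2c, Cyp3 and Ugt2 hold most of the genes measured on no array (5, 3 and 4), and all 11 Cyp4 genes were measured on at least 4 arrays.

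The test covered the 78 member probes, of 60 genes, that were measured on at least 4 of the 8 arrays, counted without regard to group. In Gen-treated mice compared with controls, Sult4a1 fell, and it was the only one of the 78 probes with an adjusted p under 0.05 (limma); over all 29558 probes tested, 0.897% passed. At the study's threshold, an unadjusted p of 0.01, 6 of the 78 probes passed, 2 higher and 4 lower in Gen, against 7.16% of all probes (3.82% higher and 3.34% lower). The groups did not overlap for 9 of the 78, 4 higher and 5 lower, against 12.3% of all probes (5.92% and 6.42%). These shares are near those of the whole array. The 4 lower probes were Sult4a1, both of Cyp2j11 and 1 of Sult1b1, and the 2 higher were Cyp21a1 and the dimmer probe of Cyp2c37. Those 2, and the probes of Sult1e1, Cyp2c29, Cyp4a14 and Cyp4x1, were measured on no control array and entered the test through the 4 Gen arrays alone, so the counts are a description. The median log2 difference of the 78 probes was 0.05, with 44 higher and 34 lower, beside 0.02 over all probes. By gene, 35 of the 60 were higher and 25 lower, but 26 were higher and 34 lower under normexp background correction, 32 and 28 under quantile normalization, and 48 and 12 without scaling between arrays, which moved the median of all probes to 0.26.

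**Figure D2:**
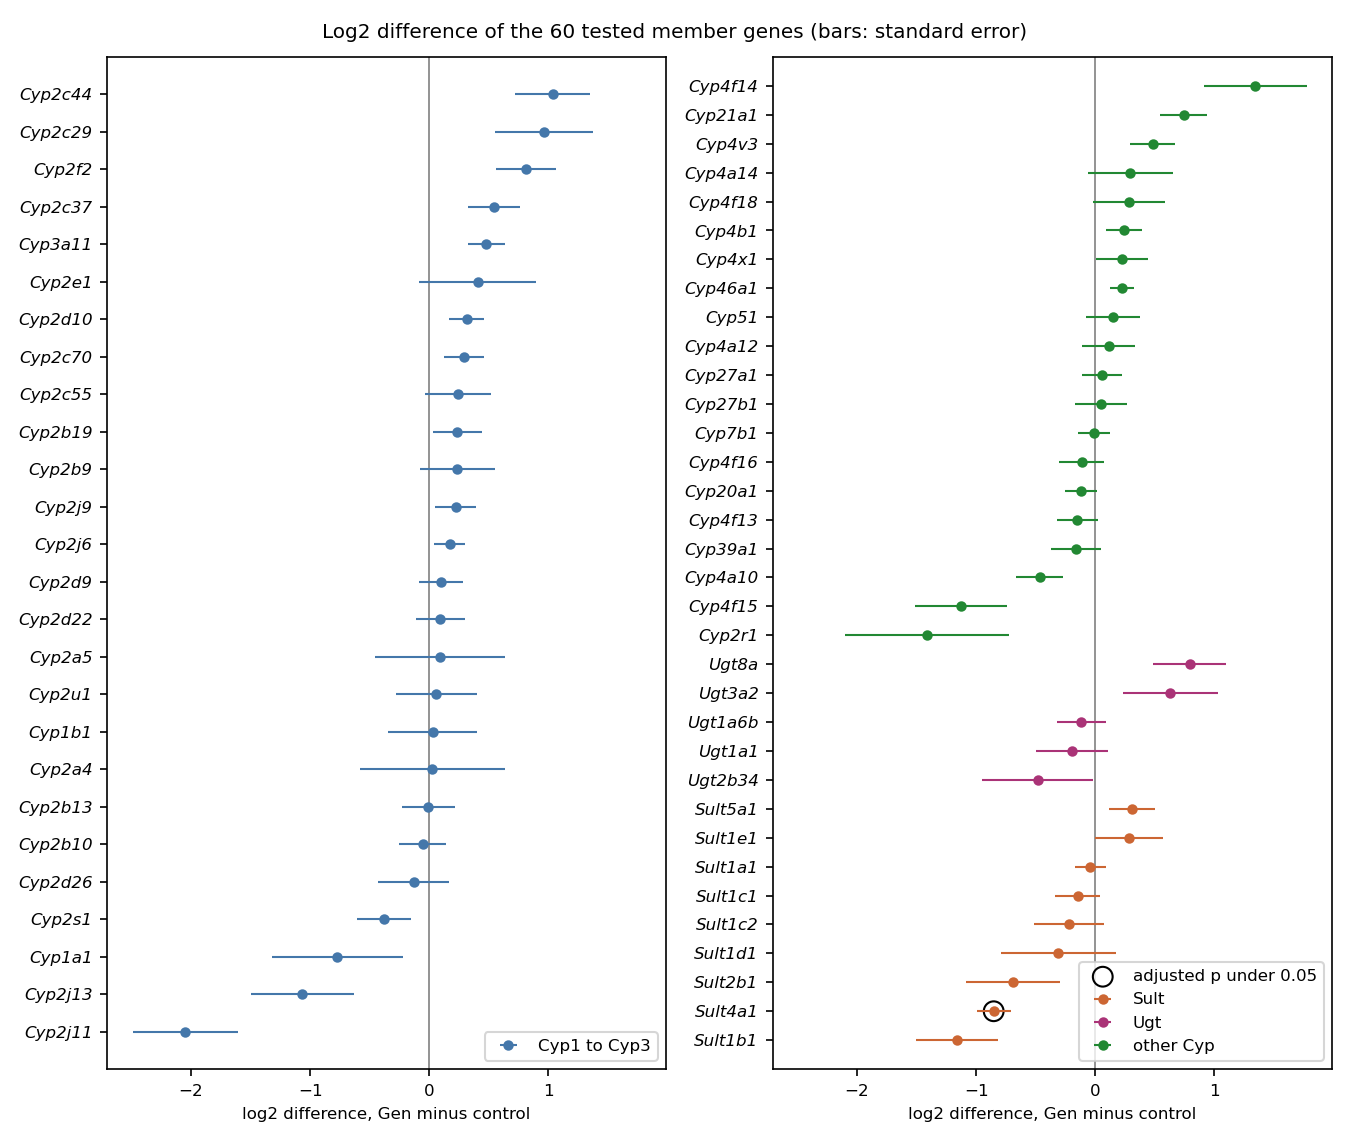
Log2 difference between Gen and control (horizontal axis) for the 60 tested member genes, with the standard error as bars. The left panel shows families 1 to 3 apart from Cyp2r1, and the right panel the other Cyp genes, Ugt and Sult. Cyp2j11 lies lowest at -2.05 and Cyp4f14 highest at 1.34, and only Sult4a1 (circle) had an adjusted p under 0.05.

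The genes described below include those with an adjusted p under 0.05 or an unadjusted p under 0.01. Those measured on all 4 arrays of 1 group and at most 1 of the other are also included. Such a difference in calls can stand beside like signals, as for Sult1e1. A list of genes named for their known work on estrogens, sterols, retinoids, vitamin D and polyaromatic inducers is added. The other members of their families are given beside them and were chosen after their values were seen. For all genes whose groups did not overlap, the two-sided exact permutation p was 0.0286, the smallest that 4 against 4 arrays allow.

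Sulfotransferases. Sult4a1 is a member of the family found mostly in brain, with no well-established substrate. Its probe lies on the minus strand at chr15:84158437-84158496 (mm7), and its first 30 bases are printed because it is the member that passed the test.
Sult4a1 probe: agtactgtacggatgttctggaaccacaca
The signal was 599, 617, 589 and 553 in controls and 342, 364, 368 and 247 in Gen-treated mice. All 4 Gen arrays lay below all 4 control arrays. The log2 difference was -0.85 ± 0.14 (SE, n = 4 per group; limma adjusted p = 0.0446). It was lower in Gen under all alternatives, with adjusted p between 0.0173 and 0.359, and it did not pass when any 1 of the 8 arrays was left out (adjusted p 0.0623–0.114). The other Sult4a1 probe was measured on no array.

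Sult1b1, which sulfates phenols and thyroid hormones, was 97, 112, 108 and 76.7 in controls and 59.1, 21, 66.9 and 43.5 in Gen-treated mice (chr5:87451685-87451744, mm7). The groups did not overlap, and the log2 difference was -1.16 ± 0.34 with an adjusted p of 0.136. Its other probe was measured on 1 array only. Sult1a1, the main phenol sulfotransferase, was 8419–10532 in controls and 7853–10117 in Gen-treated mice, a log2 difference of -0.04 ± 0.13 (adjusted p = 0.881). The ranges of the groups were nearly the same.

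Sult1e1, the estrogen sulfotransferase, was measured on 4 Gen arrays and on no control array. Its signals were nevertheless much alike, at 12.5, 29.1, 29 and 29.4 in controls and 25.9, 33.6, 25.2 and 30.8 in Gen-treated mice, and no bound above 1-fold could be given (log2 difference 0.28 ± 0.28, adjusted p = 0.61). Sult2b1, which sulfates cholesterol and other hydroxysteroids, was 68.2–136 in controls and 36.1–122 in Gen-treated mice, with a log2 difference of -0.69 ± 0.39 (adjusted p = 0.379). The other 4 tested members, Sult1c1, Sult1c2, Sult1d1 and Sult5a1, had log2 differences between -0.31 and 0.31, and their groups overlapped. Of the 9 tested Sult genes 7 were lower and 2 higher in Gen, with a median log2 difference of -0.22. Under normexp 8 were lower, and under quantile normalization 7. Without scaling between arrays 4 were lower and 5 higher, with a median of 0.02 where that of all probes was 0.26.

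**Figure D3:**
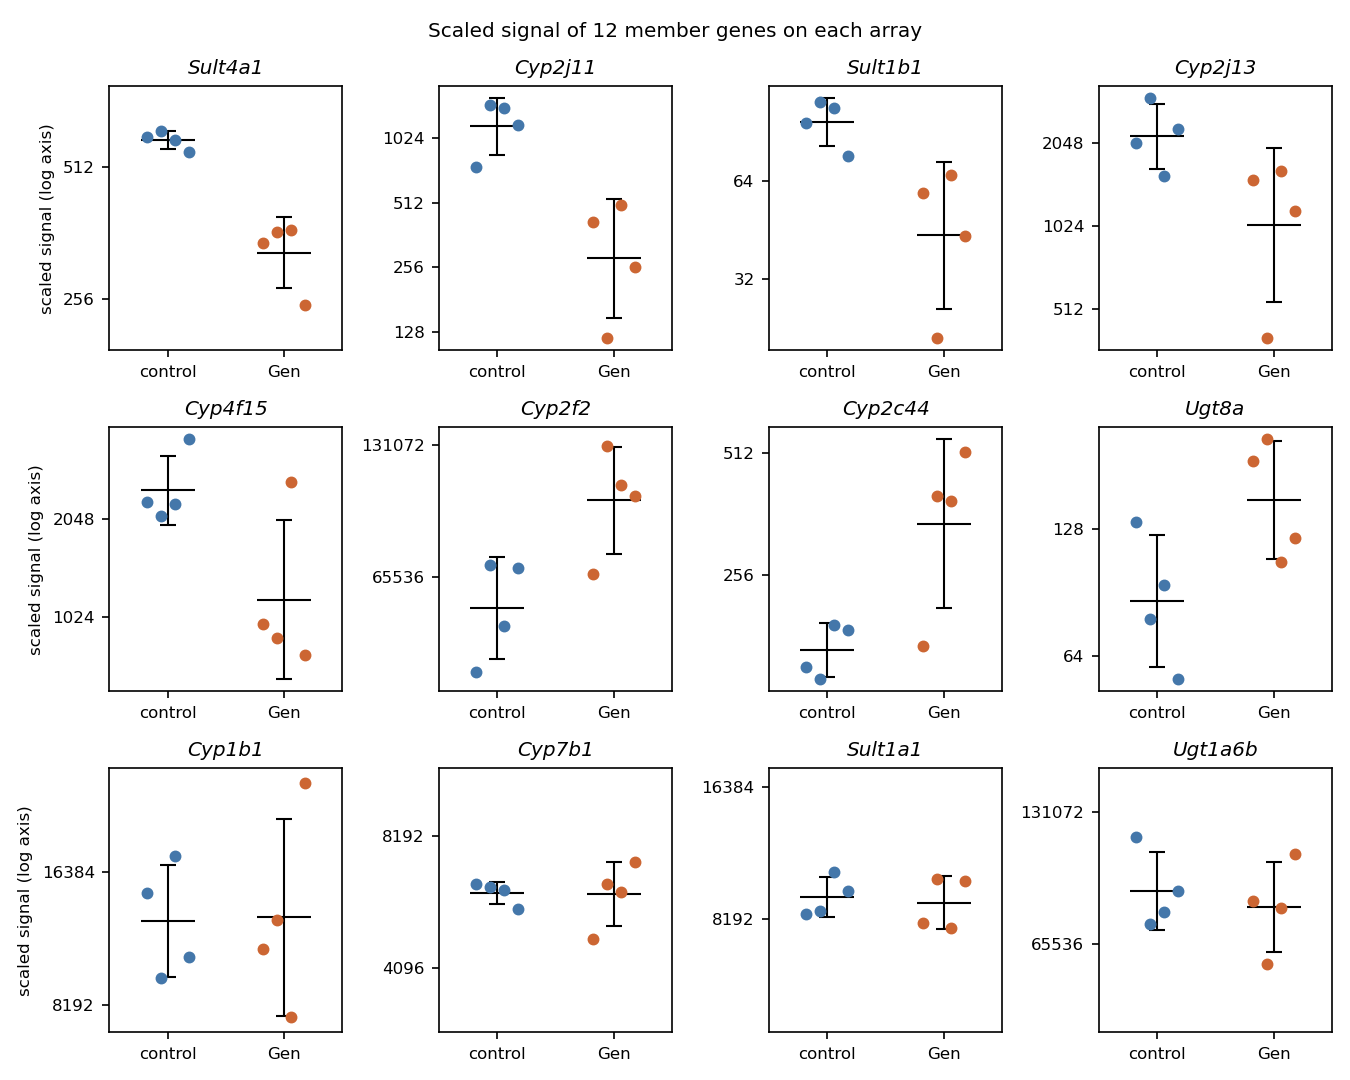
Scaled signal of 12 member genes (vertical axes, log scale, each with its own range) on the 4 control arrays (blue) and 4 Gen arrays (orange); horizontal lines are means of log2 signals and bars 1 SD. The groups are apart for Sult4a1, Cyp2j11 and Sult1b1 and overlap for the other 9 genes.

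The Cyp2j genes. Cyp2j enzymes convert arachidonic acid to epoxides, and the mouse genes lie together on chromosome 4. Cyp2j11 had the largest difference of all tested member genes. Its signal was 753, 1463, 1417 and 1184 in controls and 418, 119, 498 and 255 in Gen-treated mice (chr4:95690233-95690292, mm7). All Gen arrays lay below all control arrays, Gen array 2 lowest. The log2 difference was -2.05 ± 0.44 with an unadjusted p of 0.00153 and an adjusted p of 0.0742, so it passed the study's threshold and missed that of the adjusted p.

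The second Cyp2j11 probe, at chr4:95687358-95687417, had the same pattern, with 692, 1198, 1076 and 985 in controls and 289, 19.8, 316 and 206 in Gen-treated mice (log2 difference -2.80 ± 0.82, adjusted p = 0.134). Over the alternatives the difference of Cyp2j11 ran from -2.42 to -1.63, with adjusted p between 0.0086 and 0.183. Without Gen arrays 1 and 2, where the ovarian steroidogenic markers were highest, it was -1.71 ± 0.37 (adjusted p = 0.169).

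The probe of Cyp2j11 shares a stretch of 30 bases with 1 of the 3 probes of its neighbor Cyp2j13, with 28 equal bases. The stretches are shown because both genes are read in part through the same letters. Capitals mark the differing bases, and the substitutions, counted from 1 at the first base shown and with the base of Cyp2j11 first, are A19G and C26T.
Cyp2j11 probe: atgggcagtttaagaagaAagaatcCtttc
Cyp2j13 probe: atgggcagtttaagaagaGagaatcTtttc
This Cyp2j13 probe was 440.4, 521, 431 and 453 in controls and 392, 364, 411 and 354 in Gen-treated mice, a log2 difference of -0.28 ± 0.10 (adjusted p = 0.201). The groups did not overlap, but the difference was far smaller than that of the Cyp2j11 probe. The brightest Cyp2j13 probe was 2049, 2973, 1558 and 2294 against 1505, 402, 1615 and 1164, with Gen array 2 again lowest (-1.06 ± 0.44, adjusted p = 0.239). The third probe had a log2 difference of 0.01 ± 0.80, so the 3 probes of this gene disagree. What part hybridization of 1 transcript to both probes had was not tested.

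The other genes of the cluster did not follow. Cyp2j6, measured on all 8 arrays, was 1442–1591 in controls and 1461–2063 in Gen-treated mice (0.17 ± 0.13, adjusted p = 0.506). Cyp2j9 was 1557–2256 and 1618–2490.4 (0.22 ± 0.17, adjusted p = 0.505). For both, the ranges overlapped. Cyp2j5 was measured on no array.

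Cyp2a and Cyp2b. Cyp2a5 oxidizes coumarin and nicotine, its near copy Cyp2a4 hydroxylates steroids, and the Cyp2b genes are known targets of the receptor CAR. These genes lie in 1 cluster on chromosome 7. Cyp2a5 was 33258, 35045, 42949.9 and 32993 in controls and 107921, 16460.5, 21073 and 56371 in Gen-treated mice. The 4 control arrays lay close together, and the Gen arrays lay on both sides of them. The mean log2 difference was 0.09 ± 0.55 (adjusted p = 0.944), while the highest Gen array was 6.56 times the lowest and the highest control array 1.30 times.

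The second Cyp2a5 probe and both Cyp2a4 probes gave the same picture. The brightest Cyp2a4 probe was 12759, 11797, 15459 and 11446 in controls and 39345, 5119, 6508 and 21822 in Gen-treated mice. Over the 4 Cyp2a probes the median SD of log2 signals was 0.19 among controls and 1.28 among Gen arrays, and all 4 had an SD of at least 1 in Gen. Of the 24923 probes measured on all 8 arrays, 1.09% had an SD that large in Gen and 1.10% in controls. This spread was noticed in the values and is given with no test.

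The Cyp2b probes had a smaller spread in the same order. Cyp2b10 was 1860.3, 1987, 1860.2 and 1588 in controls and 2562, 1341, 1538 and 1775 in Gen-treated mice. Cyp2b13 was 2516, 2672, 2419 and 2097 against 3549.7, 1705, 2014 and 2728. On 8 of the 10 Cyp2a and Cyp2b probes measured on all arrays, array 1 was highest in Gen, followed by arrays 4, 3 and 2, and no other member probe measured on all arrays had that order, which 4.17% of all probes had. The order was read from these same probes, and several of them belong to the same gene. The counts are therefore a description and no test. Cyp2b9, at 8134, 5366, 5630.1 and 4578 in controls and 9348, 4223, 5286 and 10359 in Gen-treated mice, had arrays 4 and 1 high and arrays 3 and 2 low. The log2 differences of the 6 Cyp2a and Cyp2b genes tested were between -0.06 and 0.24, and none passed. A second, dim Cyp2b13 probe, measured on 2 control and 4 Gen arrays, was at 1.46 ± 0.70 (adjusted p = 0.3), and a second Cyp2b9 probe at -0.36 ± 0.27 (adjusted p = 0.506), so the probes of these genes disagree.

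**Figure D4:**
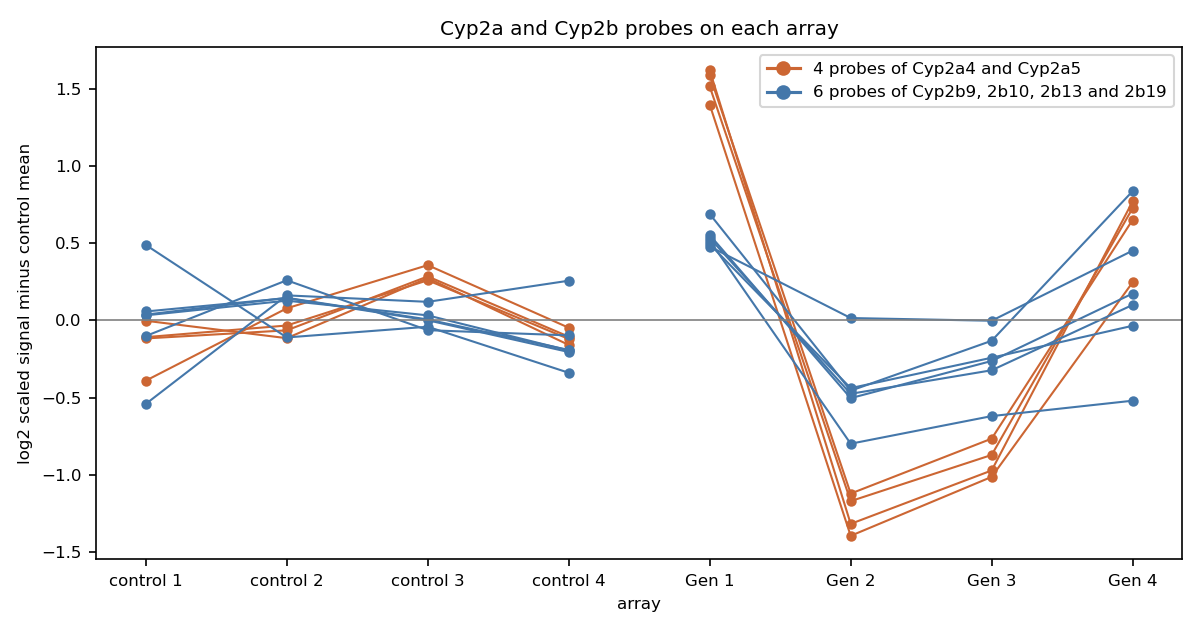
Log2 scaled signal minus the mean of the controls (vertical axis) on each array (horizontal axis) for the 10 Cyp2a and Cyp2b probes measured on all 8 arrays; lines join the points of 1 probe, and the arrays have no order. Control arrays lie near 0, and among the Gen arrays the 4 Cyp2a probes (orange) are above the control mean on arrays 1 and 4 and below it on arrays 2 and 3.

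The signals of Cyp2a4 and Cyp2a5 cannot be fully told apart. Their brightest probes overlap on the genome as the array design gives it (chr7:23212199-23212258 and chr7:23212221-23212279, mm7), and 35 of the 38 bases they share are equal. The first 30 bases of the shared stretch are shown with the differing bases in capitals. With the base of Cyp2a4 first and positions counted from the first base shown, the substitutions are T8A, T9G and C10A.
Cyp2a4 probe: aggacacTTCgtagacttgcagaggatatt
Cyp2a5 probe: aggacacAGAgtagacttgcagaggatatt

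Their promoters, taken from RefSeq (GRCm38.p6) as 250 bases before to 50 after the start of the gene, are shown because the signals of these genes moved together over the arrays. The promoter of Cyp2a4 is chr7:26306942-26307241 and that of Cyp2a5 chr7:26835089-26835388, both on the plus strand. Shifted by 1 base, 294 of 299 bases were equal (98.3%). Capitals mark TATAAA and TGACCT, the reverse of the nuclear receptor motif AGGTCA.
Cyp2a4 promoter: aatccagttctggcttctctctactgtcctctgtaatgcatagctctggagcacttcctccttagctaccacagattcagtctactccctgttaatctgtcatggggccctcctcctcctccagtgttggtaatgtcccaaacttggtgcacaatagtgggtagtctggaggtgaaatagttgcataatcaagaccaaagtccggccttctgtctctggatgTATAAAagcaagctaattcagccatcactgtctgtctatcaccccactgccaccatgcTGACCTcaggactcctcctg
Cyp2a5 promoter: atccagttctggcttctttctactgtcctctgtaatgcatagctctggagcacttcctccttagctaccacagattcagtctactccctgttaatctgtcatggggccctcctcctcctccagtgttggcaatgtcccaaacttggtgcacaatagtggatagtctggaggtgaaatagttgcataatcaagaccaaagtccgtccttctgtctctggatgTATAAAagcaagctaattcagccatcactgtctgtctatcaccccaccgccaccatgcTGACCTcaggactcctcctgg

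Promoters were found for 70 of the 91 members and searched on both strands. TATAAA was present in 35.7% of them and in 13.6% of all 32851 promoters of the table, and AGGTCA in 27.1% and 16.3%. The core of the Ah receptor motif, GCGTG, was in 21.4% of the members and 32.4% of all, and CCAAT in 40% and 37.4%. The consensus estrogen response element was in 0 of the 70 and in 0.07% of all. The members were counted with a single promoter per gene, and the table with every promoter it holds. Some members are near copies, as Cyp2a4 and Cyp2a5 are. These counts describe only the letters of the windows.

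Cyp2c, Cyp2d and the other Cyp2 genes. The Cyp2c enzymes act on drugs and on arachidonic acid. All 5 tested Cyp2c genes were higher in Gen, with log2 differences between 0.24 and 1.04, as were 15649 of all 29558 probes tested. None of the 5 passed, and under normexp background correction 2 of them were lower. Cyp2c29 entered the test through the Gen arrays alone, and Cyp2c55 was measured on 1 control and 3 Gen arrays. The count of 5 is therefore a description. Cyp2c29 was measured on 4 Gen arrays and no control array, at 8.13, 29.9, 13.4 and 7.54 in controls and 19.6, 26.8, 29.6 and 22.8 in Gen-treated mice. Its signal was at least 1.10-fold higher in Gen (adjusted p = 0.254), where the bound sets the Gen mean against the higher, on each control array, of the probe's own signal and the lowest signal called well above background, and under normexp the difference turned to -0.080. All 8 signals lay below 34.7, the highest such lowest signal over the 8 arrays, so with that value as a common floor no difference was left. Both probes of Cyp2c37 were higher on all Gen arrays than on all control arrays, and the brighter was 38.1, 66, 78.6 and 71.6 against 86.2, 102, 82 and 88.1 (0.54 ± 0.22, adjusted p = 0.239). The dimmer probe, measured on no control array, was 9.82, 26.4, 14.4 and 24.4 against 37.2, 37.4, 28.5 and 40.1 and at least 1.34-fold higher in Gen (adjusted p = 0.139). It entered the test through the Gen arrays alone. All its control signals and Gen array 3 lay below the common floor of 34.7, and the other Gen arrays lay just above it. Over the alternatives the difference of the brighter probe ran from 0.14 to 0.79, with adjusted p between 0.149 and 0.594.

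Cyp2c44 was 152, 142, 193 and 187 in controls and 171, 401, 389 and 515 in Gen-treated mice. Gen array 1 lay among the controls and the other 3 above them. The log2 difference was 1.04 ± 0.32 (adjusted p = 0.145). Without Gen array 1 it was 1.37 (adjusted p = 0.0472), a rise that leaving out the lowest Gen array brings whatever the cause. With any other single array left out, the adjusted p of Cyp2c44 was between 0.1785 and 0.3229. Cyp2f2, which oxidizes naphthalene in airway cells, was 39719, 69638, 50496 and 68506 in controls and 66462, 129915, 105786 and 100177 in Gen-treated mice, with Gen arrays 2, 3 and 4 above all controls (0.81 ± 0.25, adjusted p = 0.146).

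Cyp2e1, which oxidizes ethanol and other small molecules, was 401, 464, 1229 and 471 in controls and 429, 681, 1756 and 648 in Gen-treated mice. Array 3 was high in both groups, and the log2 difference was 0.41 ± 0.49 (adjusted p = 0.676). The adipocyte marker sum was also highest on array 3 of each group (86732 in control and 77274 in Gen), and its part in the Cyp2e1 signal was not tested. The 4 tested Cyp2d genes had log2 differences between -0.13 and 0.32, with overlapping groups. Cyp2s1 was 77173–105880.0 in controls and 53552–105469 in Gen-treated mice (-0.38 ± 0.23, adjusted p = 0.4), and Cyp2u1 had a log2 difference of 0.06 ± 0.34.

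Of the Cyp3a genes, which metabolize many drugs and steroids, only Cyp3a11 was tested. Its signal was 381, 304, 383 and 368 in controls and 554, 377, 526 and 561 in Gen-treated mice, of which array 2 lay among the controls (0.48 ± 0.15, adjusted p = 0.16).

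The Cyp1 genes, which are targets of the Ah receptor and hydroxylate estradiol and polyaromatic compounds, did not pass. Cyp1b1 was 14686, 9423, 17825 and 10512 in controls and 10946, 12794, 7664 and 26159 in Gen-treated mice. The groups overlapped widely, with a log2 difference of 0.03 ± 0.37 (adjusted p = 0.975). A second Cyp1b1 probe, measured on 3 Gen arrays only, was not tested. Cyp1a1 was 89.4, 82.8, 80.4 and 44 against 59.1, 66.2, 64.5 and 12.2, so array 4 was lowest in each group (-0.77 ± 0.55, adjusted p = 0.473). Cyp1a2 was measured on no array.

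The Cyp4 genes, omega-hydroxylases of fatty acids and leukotrienes, were all measured on at least 4 arrays, but none of the 11 passed. In Gen-treated mice 7 were higher and 4 lower, 5 higher and 6 lower under quantile normalization or normexp, and 9 higher and 2 lower without scaling. Cyp4f14 was measured on all 4 Gen arrays and on control array 3 only, at 22.6, 36.4, 79.7 and 31.9 against 101, 139, 119.9 and 51.1 (1.34 ± 0.43, adjusted p = 0.16). Gen array 4 lay below control array 3. Cyp4f15, on the same chromosome, went the other way, at 2309, 2099.7, 2283 and 3624 against 969, 880.0, 2671 and 781 (-1.12 ± 0.39, adjusted p = 0.179), with Gen array 3 among the controls.

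Cyp4v3 was 1474, 1416, 1456 and 1439 in controls and 1756, 1713, 1811 and 3046 in Gen-treated mice. All Gen arrays were higher, array 4 far above the others (0.48 ± 0.19, adjusted p = 0.219). Cyp4a14 and Cyp4x1 were measured on 4 Gen arrays and on no control array, but their signals, 8.25–31.5 and 16–23.2 in controls and 19.8–23.4 and 15.5–28 in Gen-treated mice, overlapped and gave no bound above 1-fold. For Cyp4x1 the log2 difference of 0.22 turned to -0.17 under normexp and to -0.018 under quantile normalization.

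The P450s of sterols, bile acids, steroids and vitamin D. Cyp7b1, which hydroxylates oxysterols and some steroids, was 5605–6365 in controls and 4782–7158 in Gen-treated mice, with a log2 difference of -0.01 ± 0.13 (adjusted p = 0.975). Cyp27a1, the sterol hydroxylase of bile acid synthesis, was 597–848 and 634–909.5 (0.06 ± 0.16, adjusted p = 0.875). In both genes the ranges of the groups overlapped. Cyp39a1, an oxysterol hydroxylase, was 4959–6851 and 3775–6829 (-0.16 ± 0.21, adjusted p = 0.707). A second Cyp39a1 probe, nearly as bright, was at -0.39 ± 0.17 (adjusted p = 0.265), with overlapping groups. Cyp51, the lanosterol demethylase of cholesterol synthesis, was 418–673 and 452–863 (0.15 ± 0.23, adjusted p = 0.744). Its 3 probes, like those of Cyp2j13, did not share a direction, with -0.12 and 0.52 for the other two, none past the test.

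Cyp27b1, which makes active vitamin D, was 72.8–142 in controls and 90.4–134 in Gen-treated mice (0.05 ± 0.22, adjusted p = 0.917). Cyp24a1, which degrades it, was measured on control array 4 only, at 93, while the other 7 arrays lay between 8.54 and 13.7. The mean of the controls was at least 1.67-fold above that of Gen, a bound that rests on that 1 array and has no test. Cyp2r1, the vitamin D hydroxylase of the liver, was 41.4–152 in controls and 7.83–65.8 in Gen-treated mice (-1.41 ± 0.68, adjusted p = 0.307).

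Cyp21a1, the steroid hydroxylase that leads to glucocorticoids and mineralocorticoids in the adrenal, was measured on all 4 Gen arrays and on no control array. Its signal was 14.6, 12.8, 15.5 and 22 in controls and 32.9, 23.8, 22.3 and 28.6 in Gen-treated mice, and it entered the test through the Gen arrays alone. Against the lowest signals well above background on each control array it was at least 1.23-fold higher in Gen (adjusted p = 0.11), but all 8 signals lay below the common floor of 34.7, where no difference was left, and under normexp its log2 difference of 0.74 turned to -0.068.

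The UDP-glucuronosyltransferases. None of the 5 tested Ugt genes passed. Ugt1a6b, of the group that conjugates planar phenols, was 115192, 72953, 77456 and 86782 in controls and 82052, 59182, 79463 and 105363 in Gen-treated mice (-0.12 ± 0.21, adjusted p = 0.78). Ugt1a1, which conjugates bilirubin and estradiol, was 897–1936 and 679.9–1448 (-0.20 ± 0.30, adjusted p = 0.749). In both, Gen array 2 was lowest and the groups overlapped. The transcripts of the Ugt1a locus share their 3′ exons, so a probe there can read several of them. The Ugt1a6b probe given above (chr1:88122519-88122578, mm7) lies 3′ of the Ugt1a1 probe, and its signal may not be that of Ugt1a6b alone. The other Ugt1a6b probe, at chr1:88010877-88010936, was dim and measured on 1 control and 4 Gen arrays (-0.43 ± 0.21, adjusted p = 0.32).

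Ugt8a, which makes the galactolipids of myelin, was 133, 78.5, 94.6 and 56.4 in controls and 185, 209, 107 and 122 in Gen-treated mice. Gen arrays 1 and 2 lay above all controls, and the log2 difference was 0.79 ± 0.31 (adjusted p = 0.217). Ugt2b34, from the subfamily that conjugates steroids, was 44.6–199.7 and 47.1–107 (-0.48 ± 0.47, adjusted p = 0.596), and it was the only 1 of the 8 Ugt2 genes with a test. No probe carried the name Cyp26c1 or Ugt1a6a.

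The 38 member probes measured on no array were given no test because such dim probes were lower on the Gen slide as a class. Of these 38, 35 were lower in Gen, with a median log2 difference of -1.17, and of all 7901 such probes on the array 7614 were lower, with a median of -1.16. When all probes were tested, 27 of the 38 passed, as did 5013 of the 7901 and 16.2% of all 41173 probes. No direction is given for these genes.

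Genes that serve, control or work beside these enzymes were taken from 6 lists. Among the 93 genes tested, Slco2b1, a carrier of steroid sulfates, was the only one that passed; it rose from 5553, 4988, 5251 and 5384 in controls to 7232, 7719, 7791 and 9179 in Gen-treated mice (0.59 ± 0.10, adjusted p = 0.0472). The groups did not overlap. Its adjusted p was between 0.0236 and 0.163 over the alternatives, and it did not pass when any 1 of the 8 arrays was left out. Of the 15 transport genes tested 4 reached an unadjusted p of 0.01, against 7.16% of all probes, and all were higher in Gen (3.82% of all probes): Slco2b1, Abcc4, Slco4a1 and Abcb1b (log2 differences 0.59, 0.60, 0.96 and 0.95).

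Of the 10 tested electron donors 4 reached that threshold, beside the same 7.16% of all probes. Fdx1 and Fdxr, the ferredoxin and its reductase that feed mitochondrial P450s, were higher in Gen (1.20 ± 0.33 and 1.37 ± 0.36), and Cyb5r3 and Pgrmc2 were lower (-0.37 ± 0.10 and -0.51 ± 0.15), with adjusted p between 0.11 and 0.125. Fdx1 was 14299, 12322, 16288 and 10816 in controls and 58004, 32072, 18208 and 25607 in Gen-treated mice. The ovarian steroidogenic markers were likewise high on Gen arrays 1 and 2, and without these arrays the differences of Fdx1 and Fdxr were 0.70 and 0.82 (adjusted p 0.244 and 0.254). Both genes were highest on these 2 Gen arrays, so leaving them out lowers the difference whatever its cause. The part of ovarian cells was not tested. Por, the oxidoreductase of the endoplasmic reticulum, was 65149, 54077, 53034 and 56689 against 66766, 66900.3, 63993 and 84891 (0.30 ± 0.12, adjusted p = 0.244).

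The other lists held fewer differences. Of 23 receptors and factors tested, 1 reached an unadjusted p of 0.01, which 7.16% of all probes did (Arnt2, -0.62), and Ahr was 0.31 ± 0.12 (adjusted p = 0.23). None of the 14 genes that supply sulfate and UDP-glucuronic acid and none of the 9 deconjugating enzymes, among them Sts and Gusb, reached it. Of 22 other oxidation and conjugation enzymes 3 did, with Aox1 and Ephx2 higher (0.53 and 1.26) and Nqo1 lower (-0.67). Ephx2 was highest on Gen arrays 1 and 2, as the steroidogenic markers were. Without these arrays it was 0.69, a drop that leaving out its highest arrays brings whatever the cause, which was not tested.

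**Figure D5:**
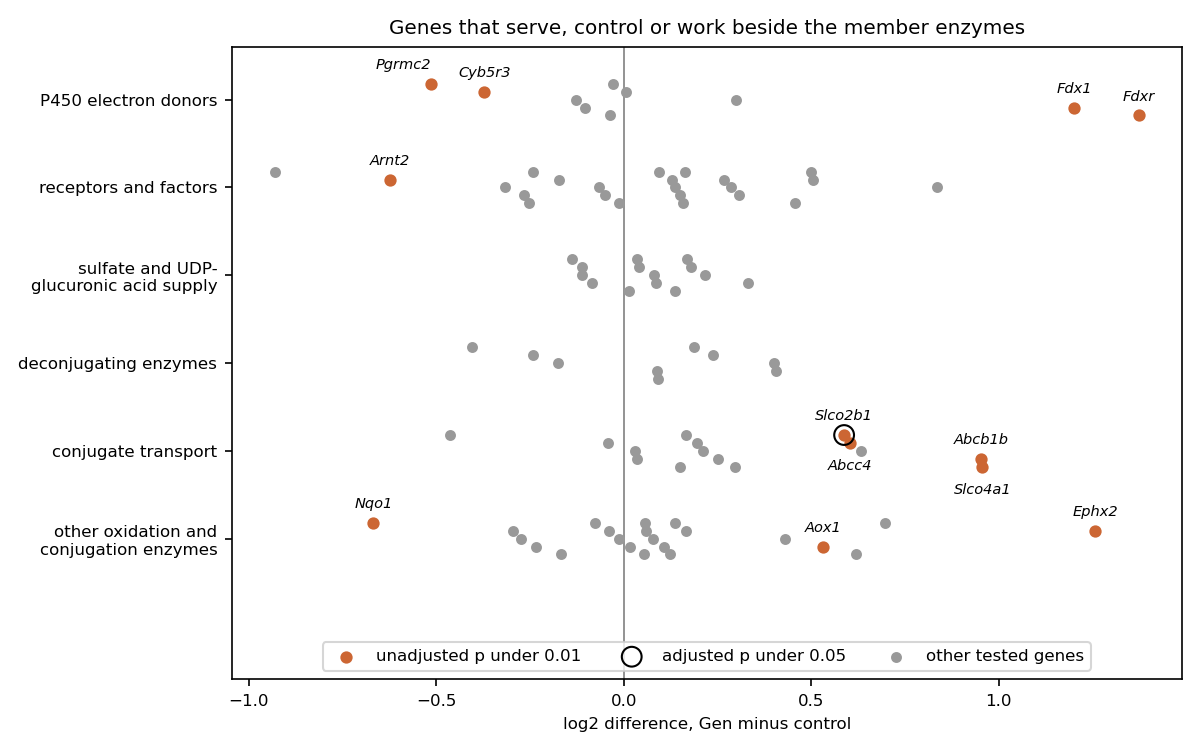
Log2 difference between Gen and control (horizontal axis) for the tested genes of 6 lists (rows, with points spread vertically for legibility); orange points had an unadjusted p under 0.01. Slco2b1 (circle) had an adjusted p under 0.05, and the largest differences were those of Fdxr, Ephx2 and Fdx1.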

How the data were processed

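The authors deposited, for each of the 8 arrays, the output of Agilent Feature Extraction 9.5, whose processed signal is a linear intensity adjusted for background within the array and left unscaled between arrays. Rosetta Resolver, named in the methods, was not used here. Probe positions follow the array design (mm7). Control and outlier spots were left out, log2 signals were averaged per probe, and the 75th percentiles of the arrays were set equal. The groups were compared with limma 3.58.1 (R 4.3.3) over 29558 probes, those called well above background on 4 or more of the 8 arrays, since dimmer probes shift together between the slides. P-values are two-sided, from lmFit and eBayes, adjusted by the Benjamini-Hochberg method. A gene with several probes is given by its brightest (mean of log2 signals). The genes named are those with an adjusted p under 0.05, those with an unadjusted p under 0.01, those well above background on all arrays of 1 group and at most 1 of the other, and a list of genes of estrogen, sterol, retinoid and vitamin D handling. The members, lists and rules were chosen with earlier results of these data known. By RefSeq accession 120 of 133 member probes matched a current symbol (3 genes renamed: Cyp2c44, Cyp3a41 and Cyp4a12 are now Cyp2c23, Cyp3a41a and Cyp4a12a). In the lists of accompanying genes, 1 gene is not reported here. Exons were not assigned, since no genome of that build was used. The steps were tested on simulated data. Each array is 1 biological replicate, and the number of arrays limits the precision.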

Additional observations from a re-analysis of the deposited data

Results flagged for a closer look

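In groups of 4 arrays, 1 array stood apart from the other 3 (gap over range above Dixon's 95% critical value for 4 samples) in 12 of 132 groups examined. Chance gives about 1 in 20 for independent groups. These genes share arrays and some were chosen by their values, so the count is a description. Control array 1 stood apart for Abcb1b (0.919), Cyp2d22 (0.858), Sult1e1 (0.984) and Sult2b1 (0.918), all lower than on the other control arrays. Sult1e1 was measured on no control array. Control array 2 was low for Sult1c2 (0.9) and high for Slco4a1 (0.91), and control array 3 was high for Cyp2e1 (0.856). Cyp1a1 was low on control array 4 (0.851) and on Gen array 4 (0.933). Gen array 4 was high for Cyp4v3 (0.903) and Por (0.843), and Gen array 2 was low for Cyp3a11 (0.839).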

How the results depend on the processing

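The count of 1 changed member probe became 3 under normexp background correction (both Cyp2j11 probes and Sult4a1), 6 without scaling (4 higher, 2 lower), 32 without a filter on dim probes, and 0 with the percentile taken over probes measured on all arrays, with the methods' t-test, and without Gen arrays 1 and 2 (an alternative chosen after seeing the data), and it was 0–1 with 1 array left out. The 6 member probes at an unadjusted p under 0.01 became 10 without scaling, 34 without the filter and 2 with the methods' t-test, and were 3–7 with 1 array left out (3 without control array 3). The 1 changed companion gene became 6 without scaling, 7 without the filter and 0 with the methods' t-test, with 1 array left out and without Gen arrays 1 and 2. Without scaling, the median difference of all probes was 0.26, so changes there are relative to that shift. The replicate numbers do not pair the samples (correlations of deviations between -0.131 and 0.0402, and 0 of 4 best with its own number), and with the replicate number as a block 0 member probes and 0 companion genes passed and 8 member probes had an unadjusted p under 0.01. Of the 66 genes named, 28 changed sign under some alternative. None of these had passed the test, and the sign changes of Cyp21a1, Cyp2c29 and Cyp4x1 were the only ones where the reported difference exceeded its SE. Under normexp the sign changed for Cyp1b1 (-0.086), Cyp21a1 (-0.068), Cyp27b1 (-0.11), Cyp2b13 (0.027), Cyp2c29 (-0.080), Cyp4a14 (-0.34), Cyp4f13 (0.031), Cyp4x1 (-0.17), Sult1e1 (-0.13) and Ugt1a6b (0.043). Under quantile normalization it changed for Cyp27b1 (-0.020), Cyp4x1 (-0.018) and Cyp7b1 (0.0065), and with the other percentile for Cyp2b13 (0.0039) and Cyp7b1 (0.0030). Without scaling it changed for Cyp20a1 (0.12), Cyp2b10 (0.19), Cyp2b13 (0.23), Cyp39a1 (0.080), Cyp4f13 (0.091), Cyp4f16 (0.13), Cyp7b1 (0.23), Sult1a1 (0.20), Sult1c1 (0.094), Sult1c2 (0.021), Ugt1a1 (0.044) and Ugt1a6b (0.12), each at or below the shift of 0.26. With the mean of all tested probes of a gene it changed for Cyp2a4 (-0.083), Cyp2b13 (0.73) and Cyp2b9 (-0.060), and without Gen arrays 1 and 2 for Cyp20a1 (0.045), Cyp27b1 (-0.10), Cyp2a4 (-0.10), Cyp2a5 (-0.057), Cyp39a1 (0.19), Cyp4f18 (-0.14), Cyp51 (-0.11), Cyp7b1 (0.12) and Ugt1a6b (0.078). With 1 array left out the differences ran over both signs for Cyp1b1 (-0.31 to 0.28), Cyp27a1 (-0.040 to 0.14), Cyp27b1 (-0.15 to 0.17), Cyp2a4 (-0.51 to 0.47), Cyp2a5 (-0.41 to 0.49), Cyp2b10 (-0.24 to 0.073), Cyp2b13 (-0.20 to 0.16), Cyp2d22 (-0.068 to 0.19), Cyp2d9 (-0.011 to 0.21), Cyp4a14 (-0.078 to 0.57), Cyp4f16 (-0.26 to 0.035), Cyp4f18 (-0.016 to 0.45), Cyp51 (-0.046 to 0.27), Cyp7b1 (-0.091 to 0.10), Sult1a1 (-0.10 to 0.021), Sult1d1 (-0.62 to 0.052), Sult1e1 (-0.023 to 0.39), Ugt1a1 (-0.36 to 0.038) and Ugt1a6b (-0.25 to 0.025). The cause of these changes was not tested. With a common floor on all arrays Cyp21a1, Cyp2c29, Cyp4a14, Cyp4x1 and Sult1e1 lay at the floor on all 8 arrays and had no difference. Sult4a1 lost its call without scaling (adjusted p = 0.359), with the other percentile (0.0512), with the methods' t-test (0.0968) and with the block (0.127). Slide as a block could not be fitted. The number of probes well above background, lower on the control arrays, limits what is said of dim genes.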
